A study of Mus musculus with 12 samples.

Results

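The let-7 family and miR-98 were measured as mature guide strands in the mouse hippocampus, with 9 assays out of the 619 miRNA assays of the OpenArray panel. Earlier results of these data were known when the family was chosen. Its assays were taken by name alone: every assay called let-7 plus a letter, or miR-98, that was not marked as a passenger strand. They were hsa-let-7a_000377, hsa-let-7b_000378, hsa-let-7c_000379, hsa-let-7d_002283, hsa-let-7e_002406, hsa-let-7f_000382, hsa-let-7g_002282, hsa-let-7i_002221 and hsa-miR-98_000577. The human prefix belongs to the assay name, and for each letter the panel assay was set beside the mouse miRNA of that name. A threshold cycle (Ct, the PCR cycle at which the signal crosses a threshold, which falls by about 1 each time the starting amount doubles) below 28 was listed in all 12 samples for 7 of the 9, as it was for 335 of the 619 assays. The assay for let-7d lacked a Ct in 1 sample and the assay for let-7i in 2 samples, and these members are described separately.

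All mice were of the C57BL/6 strain, 8 weeks old according to the labels, and RNA was taken from the ipsilateral hippocampus 8 h after an injection into the amygdala. The 4 groups of 3 samples were wt control (wild type, vehicle), P2rx7-/- control (vehicle), wt post-SE (kainic acid, KA, which triggers status epilepticus) and P2rx7-/- post-SE (KA). The anticonvulsant lorazepam was given to all of them. The P2rx7-/- mice carried a constitutive deletion of exon 2 of P2rx7, the gene of an ATP-gated ion channel linked to the release of Interleukin-1β, so the deletion is not limited to 1 cell type. Hippocampi of 2 mice were combined in every sample, so the spread between samples was already smoothed over animals, and p-values measure the spread between such pools. In whole tissue, fewer cells that hold a miRNA cannot be told apart from less of it per cell.

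The let-7 miRNAs are among the most conserved small RNAs of animals and are known for rising as cells leave the proliferating state and for being abundant in mature neurons. A miRNA guides a silencing complex to mRNAs mainly through its seed, a short stretch near the 5′ end that pairs with the target. Known targets of let-7 include Lin28a, Hmga2 and Ras genes, and the Lin28 proteins in turn block maturation of let-7 precursors. Since let-7 members share a seed, they are thought to act on largely the same mRNAs.

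The mature sequences show how close these members are and which single bases an assay has to tell apart. They are given 5′ to 3′ from RefSeq (GRCm38.p6), with bases 2 to 8, the seed, in capitals.
let-7a: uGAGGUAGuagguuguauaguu
let-7b: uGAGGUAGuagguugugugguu
let-7c: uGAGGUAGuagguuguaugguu
let-7d: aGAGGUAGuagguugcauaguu
let-7e: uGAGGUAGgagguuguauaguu
let-7f: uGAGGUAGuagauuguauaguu
let-7g: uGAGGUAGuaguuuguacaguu
let-7i: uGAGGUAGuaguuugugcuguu
miR-98: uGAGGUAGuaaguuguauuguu

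All 9 members held the same seed and the same length of 22 bases, and they differed from one another at 1 to 6 positions outside it. Counted from 1 at the 5′ end, let-7a differed from let-7c by A19G alone, from let-7e by U9G alone and from let-7f by G12A alone. Whether an assay also detects the relatives that differ from its target by 1 base was not tested. The sequence of let-7a differed from miR-98 by G11A and A19U, from let-7b by A17G and A19G, and from let-7g by G12U and U18C. The RefSeq table of mature mouse miRNAs held 11 names with this seed. The other names were let-7k and miR-1961, and of these the panel had an assay for miR-1961, with a Ct in 5 of 12 samples between 17.9 and 25.8.

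The members come from scattered loci, several of which are shared (coordinates of the mature strand in GRCm38.p6). On chromosome 13, minus strand, Mirlet7a-1 (chr13:48538239-48538260), Mirlet7f-1 (chr13:48537889-48537910) and Mirlet7d (chr13:48536078-48536099) lay within 2.16 kb, with no spanning gene in RefSeq. On chromosome X, plus strand, Mirlet7f-2 (chrX:151912353-151912374) and Mir98 (chrX:151913229-151913250) lay 876 bases apart within Huwe1, which encodes a ubiquitin ligase. On chromosome 15, plus strand, Mirlet7c-2 (chr15:85706616-85706637) and Mirlet7b (chr15:85707325-85707346) lay 709 bases apart within the long non-coding RNA Lncppara. Mirlet7a-2 (chr9:41536732-41536753, plus strand, matched within its hairpin) lay 5.29 kb from Mir100 within the long non-coding RNA Mir100hg, Mirlet7c-1 (chr16:77599672-77599693, plus strand) 732 bases from Mir99a, and Mirlet7e (chr17:17830366-17830387, plus strand) 172 bases from Mir99b within Spaca6. Mirlet7g (chr9:106178846-106178867, plus strand) lay within Wdr82, and Mirlet7i (chr10:122985698-122985719, minus strand) had no spanning gene. Whether these positions are intronic or exonic was not examined. A guide strand with more than 1 locus, as for let-7a, let-7c and let-7f, is read as a sum over its loci.

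The samples listed a Ct for 470 to 538 miRNA assays. The ranks of the 335 assays correlated with the median of the other samples at a Spearman rho of 0.91 to 0.99, except in wt control 1 with 0.73. Each miRNA was read in a single well per sample, and only control RNAs such as snoRNA135 were read in repeated wells. Of the 187 snoRNA135 wells with a Ct, 8 lay over 2 cycles from the median of their sample, of which 4 were in wt control 1, 3 in wt post-SE 1 (all with a Ct lower by 2.81 to 3.30 cycles) and 1 in P2rx7-/- post-SE 1. Of the brain markers, miR-124a, miR-128a and miR-137 had median Cts of 14.4 to 14.6 in 11 to 12 samples, whereas miR-9, miR-132, miR-138 and miR-218 had medians of 10.5 to 10.8 in 4 to 10 samples. The lowest Ct listed anywhere was 10. The liver marker miR-122 had a median Ct of 24.1, and the muscle markers had medians of 21.7 and 22.1 (both miR-1 assays), 22.7 (miR-206) and 16.1 (miR-133a). Of the red blood cell markers, miR-451 had a median of 18.1 and miR-144 a median of 22.7, with a Ct in 8 samples. The white blood cell markers miR-142-3p and miR-223 had medians of 13.7 to 17.8. Of the assays on all the marker lists that had a Ct in every sample, 0 passed an adjusted p of 0.05 in any comparison (limma).

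By Ct, let-7e was read first and miR-98 last. The median Ct over the samples was 13.3 for let-7e, 13.6 for let-7i, 13.7 for let-7g, 14.6 for let-7c, 14.8 for let-7b, 15.3 for let-7a, 15.5 for let-7d, 17.1 for let-7f and 18.4 for miR-98. Among the 467 assays with at least 10 Cts, let-7e ranked at place 32 from the lowest Ct, let-7f at 147 and miR-98 at 199. Assays differ in efficiency, so this orders readings of assays and not copies of miRNA.

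By the mean difference within a sample, neighbours in that order mostly did not differ beyond its SD. The Ct of let-7c was higher than that of let-7g in 12 of 12 samples, by 0.97 ± 0.67 cycles (SD), and that of let-7f was higher than that of let-7d in 10 of 11 samples, by 1.71 ± 0.90 cycles. For the remaining 6 neighbouring pairs the mean difference within a sample was smaller than its SD, for example 0.01 ± 0.63 cycles between let-7c and let-7b. Most of these pairs still kept their order in most samples. The first had the lower Ct in 11 of 12 samples for let-7f and miR-98. That count was 10 of 12 for let-7c and let-7b and for let-7b and let-7a. It was 8 of 10 for let-7i and let-7g, 7 of 10 for let-7e and let-7i, and 4 of 11 for let-7a and let-7d. The difference between let-7f and miR-98 was 1.53 ± 2.38 cycles and ran from −0.31 to 8.67. The first 3 members (let-7e, let-7i and let-7g) and the last 2 (let-7f and miR-98) held those places as sets in each of the 4 groups taken alone. The order therefore held as coarse sets, and readings inside a set were not always close, as for let-7f and miR-98.

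**Figure D1:**
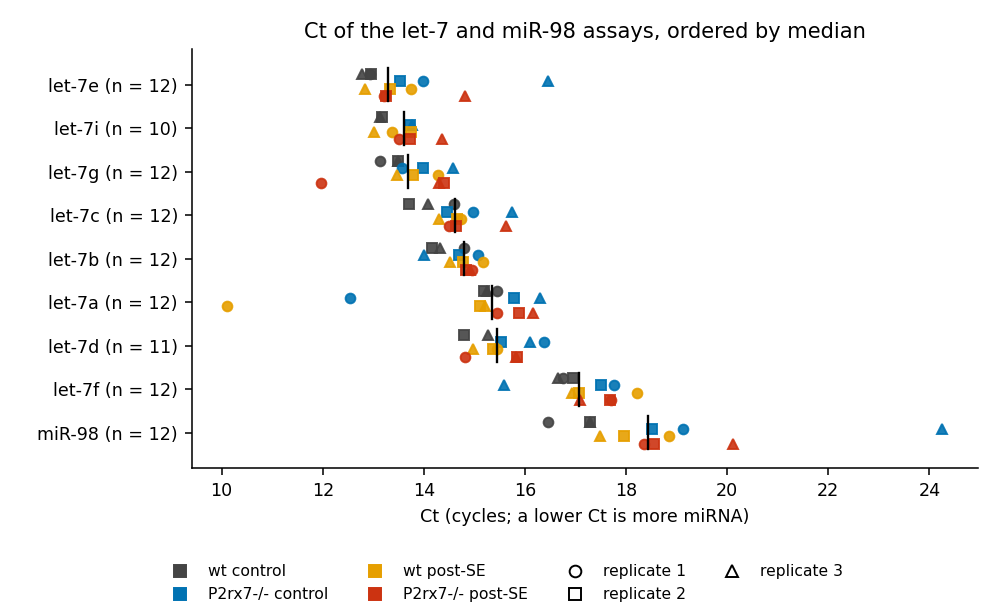
Ct (cycles) of the 9 assays in every sample with a Ct, ordered by their median (black line), with colours for the groups and symbols for the replicates. Most assays spread over 1 to 3 cycles, while let-7a reached 10.1 in wt post-SE 1 and 12.5 in P2rx7-/- control 1, and miR-98 reached 24.3 in P2rx7-/- control 3.

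For comparisons between samples, the level of an assay was taken as −ΔCt, the mean of those 335 assays in a sample minus the Ct of the assay, on a log2 scale. Of the members, let-7b and let-7c had the smallest SD within groups, with 0.37 and 0.42 (pooled over the 4 groups), against a median of 0.64 over all 335 assays. That of let-7a was 1.93 and that of miR-98 was 1.67, and 90.1% and 87.2% of all assays had an SD as small or smaller. The remaining members lay between, with 0.65 for let-7g, 0.75 for let-7f and 0.87 for let-7e. The wide spread of let-7a and miR-98 lay in a few samples.

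The level of let-7a read 3.60, 3.37 and 2.99 among wt controls, 6.62, 3.15 and 2.85 among P2rx7-/- controls, 9.16, 3.79 and 3.42 for wt post-SE, and 3.06, 3.19 and 2.93 for P2rx7-/- post-SE. Thus 10 of 12 samples lay between 2.85 and 3.79, and the other 2 stood 3.34 (10.1-fold) and 5.88 (58.9-fold) above the median of the assay. In wt post-SE 1 the Ct of let-7a was 10.11, the third lowest of 476, while in wt post-SE 2 and 3 it was at places 87 and 93. In that sample let-7c, let-7e and let-7f, each 1 base away from let-7a, lay 0.26 above, 0.02 above and 0.55 below their medians. The sample is the one in which 3 of 16 snoRNA135 wells had lower Cts, and the part of single wells in the value of let-7a was not tested.

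The level of miR-98 read 2.60, 1.27 and 0.95 among wt controls, 0.03, 0.42 and −5.11 among P2rx7-/- controls, 0.42, 0.95 and 1.14 for wt post-SE, and 0.15, 0.53 and −1.04 for P2rx7-/- post-SE. The lowest value stood 5.59 (48.0-fold) below the median, and no assay of the 335 lay further below its own median in that sample. Without P2rx7-/- control 3, the SD of miR-98 within groups fell to 0.68. In the wt samples miR-98 ran from 0.42 to 2.60, and in the P2rx7-/- samples from −5.11 to 0.53, with an overlap between 0.42 and 0.53.

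The level of let-7e read 6.12, 5.61 and 5.47 among wt controls, 5.17, 5.40 and 2.69 among P2rx7-/- controls, 5.51, 5.58 and 5.78 for wt post-SE, and 5.29, 5.84 and 4.26 for P2rx7-/- post-SE. Its lowest 2 samples were the same as those of miR-98. The level of let-7f read 2.29, 1.62 and 1.59 among wt controls, 1.40, 1.43 and 3.56 among P2rx7-/- controls, 1.06, 1.83 and 1.69 for wt post-SE, and 0.80, 1.39 and 2.00 for P2rx7-/- post-SE, and its highest sample was P2rx7-/- control 3. In P2rx7-/- control 3, 5 of the 7 members (let-7a, let-7c, let-7e, let-7g and miR-98) had their lowest level of all samples and 2 (let-7b and let-7f) their highest. Of all 335 assays, 42 had their lowest and 56 their highest level in that sample.

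The other members moved less. The level of let-7b ran from 3.54 to 5.15, that of let-7c from 3.40 to 4.85 and that of let-7g from 4.57 to 6.54, the last value in P2rx7-/- post-SE 1. Among the members, 5 of 84 values lay over 2 from the median of their assay, and among all assays 188 of 4020 (4.68%) did, of which 71 were in wt control 1. These 5 were let-7a in P2rx7-/- control 1 and wt post-SE 1, let-7e and miR-98 in P2rx7-/- control 3, and miR-98 in wt control 1. The 4 samples that hold them are 3 controls and 1 post-SE sample, and all but P2rx7-/- control 3 are replicate 1 of their group. Over all assays, replicate 1 had the most values this far out in each group. It had 18 to 71 of 335, against 3 to 15 in replicates 2 and 3. The cause was not tested.

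**Figure D2:**
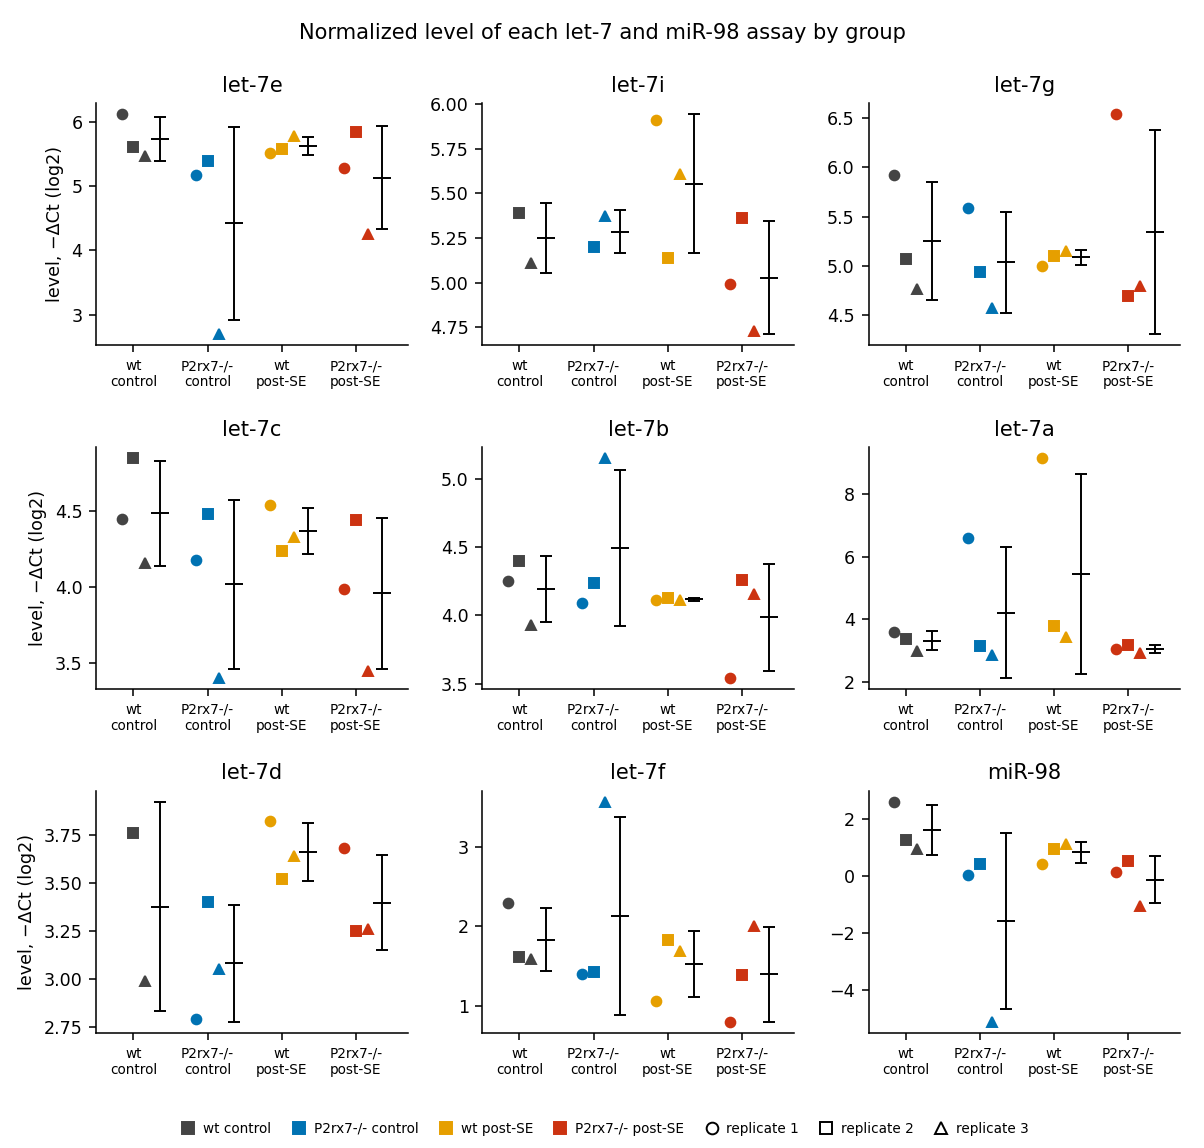
Level of each member (−ΔCt, log2; each panel has its own axis) in the samples of the 4 groups, with symbols for the replicates and the mean ± SD of the group to their right (n = 3, or 2 where a Ct is missing). The panels of let-7e, let-7f and miR-98 show P2rx7-/- control 3 far from the other samples of its group (−5.11 for miR-98), and that of let-7a shows P2rx7-/- control 1 (6.62) and wt post-SE 1 (9.16) far from theirs.

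**Figure D3:**
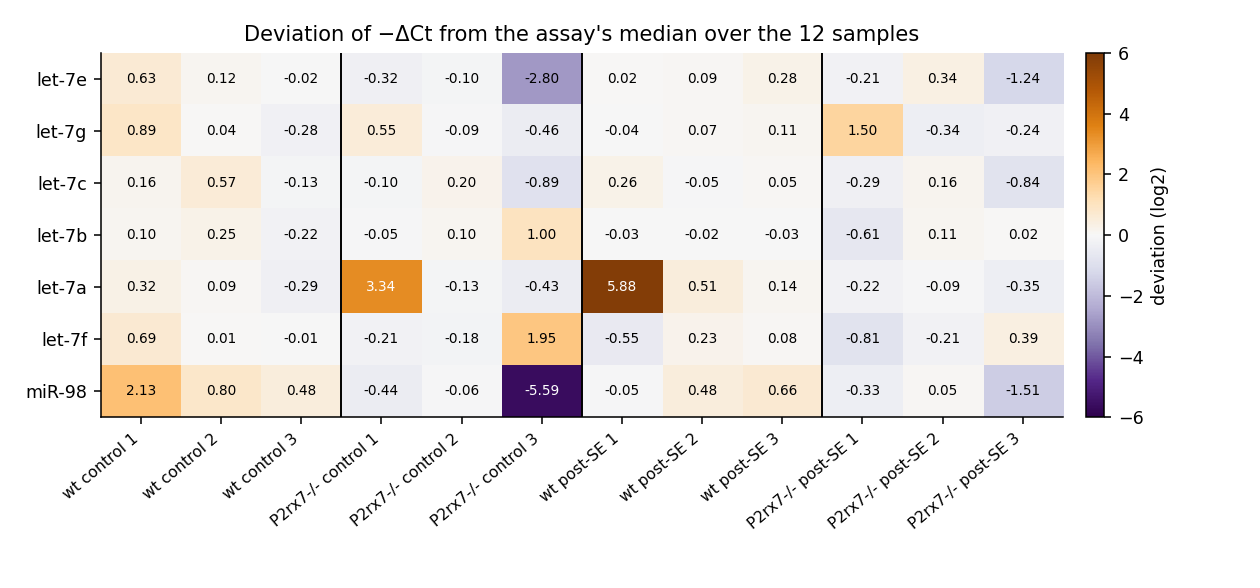
Deviation of each value from the median of its assay over the 12 samples (log2; orange is more and purple is less miRNA) for the 7 members with a Ct in all samples. Column P2rx7-/- control 3 holds −5.59 for miR-98, −2.80 for let-7e and 1.95 for let-7f, and let-7a stands out with 3.34 and 5.88.

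The response to status epilepticus in wt mice was asked by setting wt post-SE against wt control samples. Fold changes (FC) were computed from ΔΔCt with the reference group averaged, and mean FCs over 3 samples above 1.5 counted as up-regulated and those below 0.6 as down-regulated. By this rule let-7a was up-regulated with FCs of 57.3, 1.38 and 1.07 (mean 19.9 ± 32.4, SD, n = 3), and miR-98 was down-regulated with FCs of 0.440, 0.634 and 0.722 (mean 0.598 ± 0.145). The call of let-7a rested on wt post-SE 1, and without that sample 0 members were called. The mean FC of miR-98 lay next to the threshold, and its call was lost without wt control 1, which stood at 1.99, and also without P2rx7-/- post-SE 1 or 2, which enter only through the choice of assays averaged. With snoRNA202 as the normalizer in place of the mean Ct, 6 members were called down-regulated and 1 up-regulated. The Cts of snoRNA202 lay at the lower end of the listed range (medians of 10.1 to 10.5 by sample), and only 3 of its 16 wells had a listed Ct in wt control 3, a sample of the reference group. In wt control 1, of the same group, 12 wells had a Ct, with an SD of 3.74 cycles and 1 well over 2 cycles from the median. The mean over the wells served as the normalizer. The mean FC of let-7b, let-7c, let-7e, let-7f and let-7g lay between 0.828 and 0.951.

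In that comparison 23.3% of all 335 assays were called up-regulated and 12.5% down-regulated. Groups that did not overlap were found for 5.97% of assays with post-SE samples higher and for 5.07% with post-SE samples lower, and for 0 members. The fit over all assays (limma, with Benjamini-Hochberg adjustment) gave a log2 difference of 2.13 ± 1.41 (SE) for let-7a, with a 95% confidence interval from −1.0 to 5.27 and an adjusted p of 0.664. For let-7b the difference was −0.07 ± 0.34 with an interval from −0.84 to 0.69, and for miR-98 it was −0.77 ± 1.22 with an interval from −3.49 to 1.95. The median difference was −0.12 over the 7 members and −0.09 over all assays. An adjusted p below 0.05 was reached by 0 members and 0 of all assays (0%) here and in each other comparison (limma), and an unadjusted p below 0.05 by 0 members and 3.88% of assays.

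In P2rx7-/- mice the same question gave calls for let-7a, let-7e and miR-98, in which each mean was set by a control sample. Relative to P2rx7-/- control samples, the FCs of miR-98 in the P2rx7-/- post-SE samples were 3.25, 4.23 and 1.43 (mean 2.97 ± 1.42, up-regulated), those of let-7e were 1.82, 2.67 and 0.893 (mean 1.79 ± 0.887, up-regulated) and those of let-7a were 0.452, 0.494 and 0.414 (mean 0.453 ± 0.0404, down-regulated). The control samples themselves lay at 3.00, 3.92 and 0.0850 for miR-98, at 1.68, 1.97 and 0.302 for let-7e and at 5.33, 0.481 and 0.390 for let-7a, so that the groups overlapped for all 3. Without P2rx7-/- control 3, the log2 difference of miR-98 turned from 1.43 to −0.34 and that of let-7e from 0.71 to −0.15. Without P2rx7-/- control 1, that of let-7a turned from −1.15 to 0.05.

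Of all assays 17.9% were called up-regulated and 7.16% down-regulated there, and 3.88% and 2.69% had higher and lower groups that did not overlap, which held for 0 members. The log2 difference of miR-98 was 1.43 ± 1.22 (SE), with an interval from −1.29 to 4.15, and the adjusted p of all 7 members was 0.998 (limma). The smallest member differences were −0.06 ± 0.38 for let-7c and 0.31 ± 0.52 for let-7g. The FCs of let-7g were 2.84, 0.790 and 0.845, and without P2rx7-/- post-SE 1 its difference was −0.28. An unadjusted p below 0.05 was reached by 0 members and by 2.99% of assays.

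Under vehicle, miR-98 and let-7e were lower in every P2rx7-/- control sample than in every wt control sample. The FCs of miR-98 relative to wt control samples were 0.335, 0.438 and 0.00948 (mean 0.261 ± 0.223), where the wt control samples lay at 1.99, 0.791 and 0.635. Those of let-7e were 0.677, 0.791 and 0.122 (mean 0.530 ± 0.358), where the wt control samples lay at 1.31, 0.916 and 0.834. Both were called down-regulated, as were 15.5% of all assays, and they were the members among the 10.4% of assays whose P2rx7-/- control samples were all lower. Up-regulated were let-7a (FCs of 9.84, 0.888 and 0.721, mean 3.82 ± 5.22) and let-7f (0.739, 0.754 and 3.30, mean 1.60 ± 1.47), as were 21.2% of assays. In both, 2 of the 3 FCs lay below 1, and the log2 difference turned from 0.89 to −0.32 for let-7a without P2rx7-/- control 1 and from 0.29 to −0.42 for let-7f without P2rx7-/- control 3. For 3.58% of assays, and 0 members, all P2rx7-/- control samples were higher.

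The log2 difference of miR-98 in this comparison was −3.16 ± 1.22 (SE), with an interval from −5.88 to −0.44. Its unadjusted p was 0.0268 and its adjusted p 0.615 (limma), and it was 1 member among the 5.97% of assays with an unadjusted p below 0.05. For let-7e the difference was −1.31 ± 0.67, with an interval from −2.80 to 0.17 and an adjusted p of 0.615. The exact permutation test (two-sided) returned 0.1 for both as p, the smallest value that 3 samples against 3 allow. Without P2rx7-/- control 3 the differences were −1.38 for miR-98 and −0.45 for let-7e, of the same sign but smaller, and without wt control 1 they were −2.65 and −1.11. The oligodendrocyte marker miR-338-3p was lower in the same comparison by a log2 difference of −1.36 ± 0.49 (adjusted p = 0.615, limma) and the second marker, miR-219, had 0.56 ± 0.97. Their part in the result was not tested.

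After status epilepticus, let-7a and miR-98 were called down-regulated in P2rx7-/- relative to wt mice. The FCs of let-7a were 0.19, 0.208 and 0.174 (mean 0.191 ± 0.0170) against 13.1, 0.314 and 0.244 in the wt post-SE samples, so that the reference average was set by wt post-SE 1. All P2rx7-/- post-SE samples were nevertheless lower, as for 3.58% of all assays, by 0.23 on the level scale between the nearest samples (3.19 and 3.42). The FCs of miR-98 were 0.619, 0.806 and 0.273 (mean 0.566 ± 0.270) against 0.750, 1.08 and 1.23, and the groups overlapped. Down-regulation was called for 4.48% of assays and up-regulation, with 0 members, for 17%. Higher groups that did not overlap were found for 2.09% of assays and 0 members.

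The log2 difference of let-7a was −2.39 ± 1.41 (SE), with an interval from −5.53 to 0.74, and it was −0.57 without wt post-SE 1. That of miR-98 was −0.96 ± 1.22, with an interval from −3.68 to 1.76, and −0.50 without P2rx7-/- post-SE 3. The adjusted p of all 7 members was 0.999 (limma), and an unadjusted p below 0.05 was reached by 0 members and by 1.19% of assays. The members' median difference was −0.41, with 6 of 7 below 0, against −0.01 for all assays, of which 49.0% lay above 0. With the median, snoRNA135 or snoRNA202 as the normalizer, let-7b and let-7f lay above 0. Relative to wt control samples, 6 of 7 members also lay below 0 for wt post-SE and for P2rx7-/- post-SE. Of all assays, 41.2% and 43.0% lay above 0 there. The FCs of let-7g were 2.74, 0.763 and 0.816, again set by P2rx7-/- post-SE 1.

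**Figure D4:**
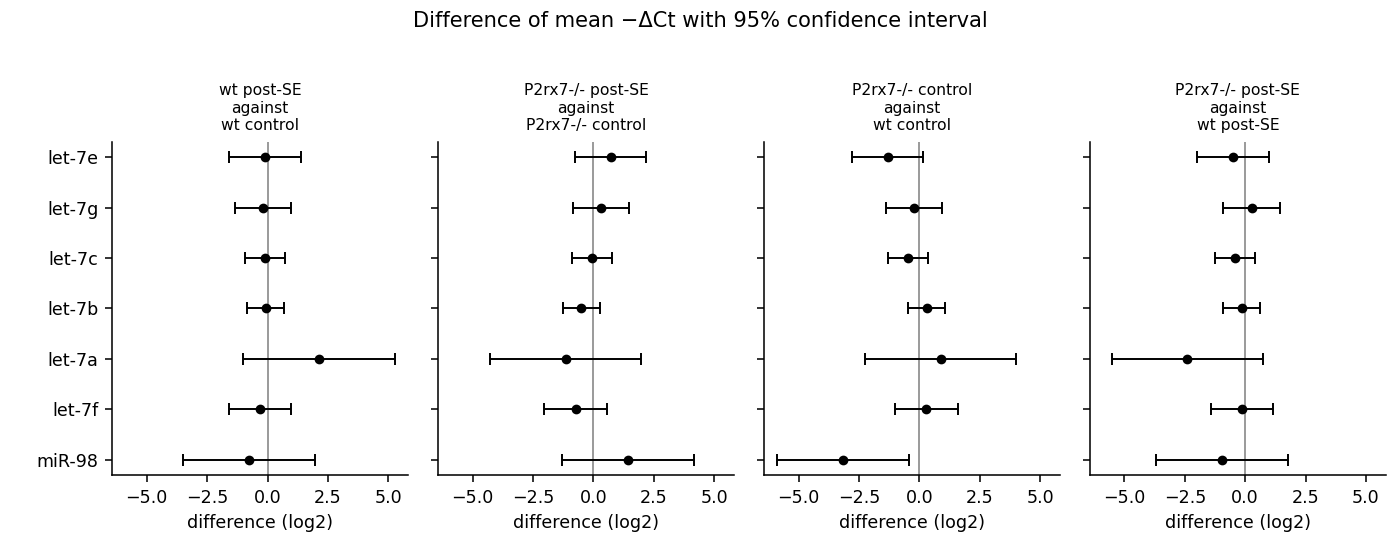
Log2 difference of the mean level between groups with its 95% confidence interval (limma, 3 samples against 3) for the 7 members in 4 comparisons. All intervals but 1 hold 0, the exception being miR-98 in P2rx7-/- control against wt control samples (−3.16, from −5.88 to −0.44), whose adjusted p was 0.615.

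Relative to wt control samples, which it shares with the comparisons above, P2rx7-/- post-SE had 1 member called. The FCs of miR-98 were 0.363, 0.472 and 0.16 (mean 0.332 ± 0.158), all below the wt control samples. Down-regulation was called for 13.1% of assays and up-regulation, with 0 members, for 20.6%. Groups without overlap were lower for 7.46% of assays (miR-98 among them) and higher for 2.69% (0 members). With snoRNA202 as the normalizer, 6 members were called down-regulated. Its Cts were mostly missing in wt control 3 and had an SD of 3.74 cycles between wells in wt control 1. The log2 difference of miR-98 was −1.73 ± 1.22 (SE, adjusted p = 0.712, limma), and an unadjusted p below 0.05 was reached by 0 members and by 3.58% of assays.

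Averaged over both treatments, miR-98 was lower in P2rx7-/- than in wt samples by a log2 difference of −2.06 ± 0.87 (SE), with an interval from −3.99 to −0.14. Its unadjusted p was 0.0381 and its adjusted p 0.930 (limma), while 4.78% of assays had an unadjusted p below 0.05. A two-sided exact permutation test, in which genotype labels were exchanged within control and within post-SE samples (400 relabellings, smallest possible p 0.005), gave p = 0.01, which was 0.335 after adjustment over all assays. An unadjusted permutation p below 0.05 was found for 5.97% of assays. For let-7e the difference was −0.91 ± 0.47 with an exact permutation p of 0.05, and for let-7c it was −0.44 ± 0.27 with an exact permutation p of 0.09. For let-7a it was −0.75 ± 1.00 (exact permutation p = 0.51), which turned to 0.15 without wt post-SE 1 and was −1.35 without P2rx7-/- control 1. Those of let-7b, let-7f and let-7g lay between 0.02 and 0.09. Without P2rx7-/- control 3 the difference of miR-98 was −1.16 and that of let-7e was −0.46.

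Averaged over both genotypes, 0 members passed a test of the response to status epilepticus. The log2 differences ran from −0.52 ± 0.41 (SE) for let-7f to 0.49 ± 1.00 for let-7a, with a median of 0.07 against −0.05 over all assays. The lowest adjusted p of a member was 0.829 (limma), and 0 members and 3.28% of assays had an unadjusted p below 0.05. The interval ran from −0.75 to 0.89 for let-7g, from −0.83 to 0.25 for let-7b and from −0.68 to 0.50 for let-7c, so that a change by a factor of 2 in either direction lay outside it. The intervals of let-7a, let-7e, let-7f and miR-98 held such a change in at least 1 direction. The interaction of genotype and treatment was largest for let-7a, with −3.28 ± 1.99, and for miR-98, with 2.21 ± 1.73, and the adjusted p was 0.851 for both (limma). An unadjusted p below 0.05 in the interaction was reached by 0 members and 2.39% of assays.

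For the 2 members that lacked Cts, all values are given here. The level of let-7d read 3.76 and 2.99 among wt controls (replicates 2 and 3), 2.79, 3.40 and 3.05 among P2rx7-/- controls, 3.82, 3.52 and 3.64 for wt post-SE, and 3.68, 3.25 and 3.26 for P2rx7-/- post-SE. The level of let-7i read 5.39 and 5.11 among wt controls (replicates 2 and 3), 5.20 and 5.37 among P2rx7-/- controls (replicates 2 and 3), 5.91, 5.14 and 5.61 for wt post-SE, and 4.99, 5.36 and 4.73 for P2rx7-/- post-SE. Both were fitted with their missing samples left out, among 478 assays with at least 2 Cts in every group. The largest log2 differences between 2 groups were −0.53 ± 0.33 (SE) for let-7i between P2rx7-/- and wt mice after status epilepticus (adjusted p = 0.999, limma) and 0.32 ± 0.33 for let-7d in P2rx7-/- post-SE against P2rx7-/- control samples (adjusted p = 0.998). In P2rx7-/- control 3, let-7d and let-7i lay at 3.05 and 5.37, inside the range of the other samples.

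The passenger strand, the other arm of the same hairpin, was read by 7 further assays (let-7a*, let-7c-1*, let-7d*, let-7e*, let-7f-1*, let-7g* and let-7i*). For the 6 of them that had a Ct in every sample, the passenger had the higher Ct in each sample with both Cts, from 4.98 ± 1.83 cycles (SD, n = 12) above the guide for let-7a to 11.65 ± 1.42 cycles (n = 12) for let-7e. In wt post-SE 1, where let-7a stood at 9.16, the level of let-7a* was −0.57, and in P2rx7-/- control 1, where let-7a stood at 6.62, it was −0.68. Both values of let-7a* lay in the upper part of its range of −1.71 to −0.43 over all samples, without a deviation of the size seen in the guide. In P2rx7-/- control 3, where let-7e was at its lowest level, let-7e* was at its highest, −4.77 against −7.09 to −5.48 elsewhere. The difference in Ct between let-7e* and let-7e was 7.46 cycles in that sample and reached 12.66 cycles in P2rx7-/- post-SE 2. Of the 6 passengers with a Ct in every sample, let-7i* was called up-regulated after status epilepticus in wt mice (mean FC 1.66) and let-7e* down-regulated after status epilepticus in P2rx7-/- mice (mean FC 0.569), with adjusted p of 0.672 and 0.998 (limma). The other calls among them were let-7d*, up-regulated in P2rx7-/- control relative to wt control samples (mean FC 1.73, adjusted p = 0.761, limma), and let-7i*, up-regulated in P2rx7-/- post-SE relative to wt control samples (mean FC 1.71, adjusted p = 0.712, limma).

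Of the miRNAs from the shared clusters outside the family, miR-99a and miR-99b had a Ct in all samples, miR-100 in 11 and miR-125a-5p in 10, and miR-125b-5p was not analysed here. The level of miR-99b, encoded next to let-7e, was 4.42 in P2rx7-/- control 3, within 3.45 to 5.52 over the samples. That of miR-99a, next to let-7c-1, was −6.69 in wt control 1, 2.34 in P2rx7-/- control 1 and 4.56 to 5.22 in the others. Its mean FC of 17.1 in wt post-SE samples relative to wt control samples rested on wt control 1, with a log2 difference of 4.09 ± 2.48 (SE, adjusted p = 0.664, limma). In wt control 1 let-7c was at 4.45, so that these neighbours did not deviate together there.

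Over the 12 samples, some members varied together and others in opposite directions, and the samples behind this were few. Levels share the sample's normalizer and 12 libraries, so correlations are given as a description. For the 21 pairs of the 7 members the median Pearson r was 0.07, with 11 above 0 and 10 below, against a median of 0.00 for all pairs of assays. The closest pair was let-7e and miR-98 (r = 0.97, Spearman rho = 0.90, n = 12), and r was 0.84 without P2rx7-/- control 3 and P2rx7-/- post-SE 3, the samples farthest from the median of let-7e. Next were let-7b and let-7f (r = 0.86, rho = 0.56), for which r fell to 0.15 without P2rx7-/- control 3 and P2rx7-/- post-SE 1. The lowest value was for let-7e and let-7f (r = −0.70, rho = −0.03), and without P2rx7-/- control 3 it was 0.07.

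Closeness in sequence or locus was set beside these values. The 4 pairs that differ by a single base had r between −0.36 and 0.30 over all samples. The values of the pairs with let-7a rested on P2rx7-/- control 1 and wt post-SE 1, without which r was 0.62 with let-7c, 0.66 with let-7e and −0.15 with let-7f. The closest pair in level, let-7e and miR-98, differs by G9U, G11A and A19U. The neighbours on chromosome X, let-7f and miR-98, had r = −0.63 (rho = 0.10) over all samples and 0.41 without P2rx7-/- control 3. The neighbours on chromosome 15, let-7b and let-7c, had r = −0.27 (rho = 0.23) and 0.47 without that sample. With the second locus of let-7c and let-7f elsewhere, these guides cannot be assigned to one locus.

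**Figure D5:**
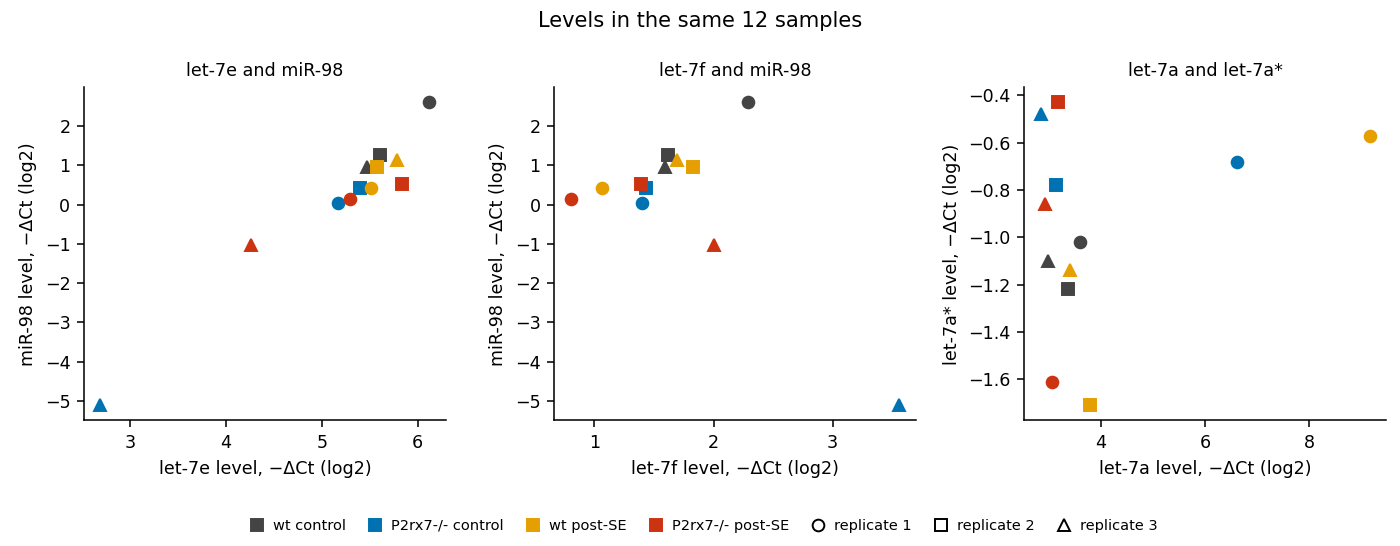
Levels (−ΔCt, log2; axes differ) in the same 12 samples, coloured by group, for let-7e and miR-98, let-7f and miR-98, and let-7a and its passenger let-7a*. P2rx7-/- control 3 lies at 2.69 and −5.11 in the first panel and at 3.56 and −5.11 in the second, and in the third the samples at 9.16 and 6.62 on the let-7a axis do not stand apart on the let-7a* axis.

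Among all 335 assays, those most alike to a member over the 12 samples were mostly from other families. For miR-98 they were miR-29c (r = 0.98, rho = 0.94), let-7e and miR-369-3p (r = 0.97, rho = 0.88), and with miR-29c r was 0.97 without wt control 1 and P2rx7-/- control 3. For let-7e they were miR-181c (r = 0.97, rho = 0.88), miR-98 and miR-29c (r = 0.97, rho = 0.87), and for let-7c they were miR-181a (r = 0.91, rho = 0.80), miR-181c and miR-25. For let-7f they were miR-103 (r = 0.96, rho = 0.87), miR-200a and miR-487b, and for let-7b miR-551b (r = 0.87, rho = 0.64), let-7f and miR-92. The values of let-7a with miR-324-3p (r = 0.87) and of let-7g with miR-107 (r = 0.77) rested on 2 samples each, without which r was −0.48 and −0.20. Without the 2 farthest samples, r with the 3 most alike assays was 0.69 to 0.97 for miR-98, let-7e and let-7f, 0.47 to 0.59 for let-7c, 0.11 to 0.33 for let-7b, −0.48 to 0.39 for let-7a and −0.40 to −0.20 for let-7g.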

How the data were processed

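MicroRNAs were measured with TaqMan OpenArray panels (QuantStudio 12K Flex) on pre-amplified cDNA from 1 µg of total RNA in 12 samples, 3 in each of 4 groups taken from the labels. The authors deposited Ct values, which are scores in cycles listed from 10 to 28 (others empty), and fold changes, which are ratios to wt control 1 in which empty Cts appear to have been entered as 0. The Ct-calling software is not given in the sources used here. The deposited fold changes served only as an alternative, and 0 sample columns were left unassigned.

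From the Cts, levels (−ΔCt) were computed against the sample mean over the 335 assays with a Ct below 28 in all samples. FCs were called by the thresholds of the study's methods (1.5 and 0.6). In each comparison that the paper also counts, more assays were called here than the paper reports, and the cause was not tested. Differences were tested with limma 3.58.1 (R 4.3.3, lmFit and eBayes over all 12 samples with 4 group means, Benjamini-Hochberg adjustment over 335 assays) in 8 comparisons. Exact permutation tests were computed with numpy 2.4.6 (Python 3.11.15), and the methods' t-test with scipy 1.17.1. The limma fits were tested on simulated data with normally distributed noise, without single-sample jumps of the kind read for let-7a and miR-98. A p of 3 samples against 3 cannot go below 0.1 by permutation. All 9 members were named, with the 3 most alike assays of each by Pearson's r. The members and lists were chosen with earlier results of these data known. Sequences and coordinates are from RefSeq (GRCm38.p6). Alternatives were other normalizers, Ct filters, a replicate block, sample weights, robust eBayes, the methods' t-test and each sample left out. Correlations were computed for 21 pairs.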

Additional observations from a re-analysis of the deposited data

Results flagged for a closer look

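With all samples, the response to status epilepticus had opposite signs in wt and P2rx7-/- mice for let-7a and miR-98. For let-7a every wt post-SE sample lay above the mean of the wt control samples and every P2rx7-/- post-SE sample below the mean of the P2rx7-/- control samples, and the interaction was −3.28 ± 1.99 (SE, log2, unadjusted p = 0.131, adjusted p = 0.851, limma). For miR-98 every wt post-SE sample lay below its control mean and every P2rx7-/- post-SE sample above it, and the interaction was 2.21 ± 1.73 (unadjusted p = 0.231, adjusted p = 0.851, limma). Neither difference passed the test. The size of the response rested on single samples in both genotypes, and its sign did so in P2rx7-/- mice. In wt mice no single left-out sample turned the sign (0.28 to 3.15 for let-7a, −1.10 to −0.30 for miR-98). For let-7a the response fell from 2.13 to 0.28 in wt without wt post-SE 1 and turned from −1.15 to 0.05 in P2rx7-/- without P2rx7-/- control 1. For miR-98 it moved from −0.77 to −0.30 in wt without wt control 1 and turned from 1.43 to −0.34 in P2rx7-/- without P2rx7-/- control 3. With these samples left out, the sign was the same in both genotypes for each of the 2 miRNAs.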

How the results depend on the processing

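Of 966 recomputed log2 differences of members, 886 kept their direction and 80 turned. P2rx7-/- post-SE against wt controls and the interaction were not among them. Not all of the 966 were free to turn, so their share is no measure of stability. The replicate block moves no group difference. A left-out sample from outside the groups compared acts only through the choice of assays averaged. No adjusted p crossed 0.05 under any alternative. By the median, replicate numbers did not pair the samples (r of deviations −0.23 to 0.28 for same-numbered samples, median 0.05, against −0.02). That median does not show whether a single replicate number stands apart. Among the samples numbered 3, r was 0.25, 0.27 and 0.28 for the pairs without wt control 3. For the pairs with wt control 3 it was −0.03, 0.07 and 0.09. The highest r of differently numbered samples was 0.26. With the replicate block, 0 members passed in each comparison. For miR-98 in P2rx7-/- against wt controls, the block could change only the SE and p (adjusted p = 0.678, limma), not the −3.16. Some alternatives were chosen after seeing the data: leaving out wt control 1 with P2rx7-/- control 3 (first pair), and P2rx7-/- control 1 with wt post-SE 1 (second pair). Members called by the FC rule numbered 2 in wt post-SE against wt controls, and 1 with all detected assays as normalizer. With snoRNA202 they numbered 7 (3 of 16 wells listed in wt control 3, SD of 3.74 cycles between wells in wt control 1). They were 1 without the first pair, 0 without the second and 0 to 2 with 1 sample left out. In P2rx7-/- post-SE against P2rx7-/- controls they were 3, and 1 without the first pair and 1 to 5 with 1 sample left out. In P2rx7-/- against wt controls they were 4, and 2 without the first pair and 2 to 4 with 1 sample left out. In P2rx7-/- against wt post-SE they were 2, and 1 without the second pair and 1 to 4 with 1 sample left out. In P2rx7-/- post-SE against wt controls they were 1, and 6 with snoRNA202, 2 without the first pair and 1 to 3 with 1 sample left out. With p below 0.05 in the methods' t-test as a further condition, 0 were called in each. The order by Ct kept 4 of 9 places in P2rx7-/- control samples alone and 7 to 9 with 1 sample left out.

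Log2 differences that turned are given with the range over single left-out samples. In wt post-SE against wt controls, let-7e became 0.07 with sample weights and 0.05 without the first pair (−0.24 to 0.06), let-7f 0.05 with weights, and let-7g 0.15 with weights and 0.14 without the first pair (−0.41 to 0.14), while let-7b ranged from −0.20 to 0.03 and let-7c from −0.28 to 0.07. In P2rx7-/- post-SE against P2rx7-/- controls, let-7a became 0.04 without the second pair (−1.82 to 0.05), let-7c 0.00 with the median, 0.04 with snoRNA202 and 0.01 without the second pair (−0.36 to 0.21), let-7e −0.19 (−0.15 to 1.19) and miR-98 −0.37 (−0.34 to 2.42) without the first pair, and let-7g ranged from −0.28 to 0.64. In P2rx7-/- against wt controls, let-7a became −0.33 without the second pair (−0.32 to 1.57), let-7b −0.33 with snoRNA202 (−0.02 to 0.51), let-7f −0.35 with snoRNA202, 0.00 with weights and −0.18 without the first pair (−0.42 to 0.66), and let-7g 0.21 with weights and 0.36 without the first pair (−0.49 to 0.13). In P2rx7-/- against wt post-SE, with the median, snoRNA135 and snoRNA202, let-7b became 0.01, 0.16 and 0.05 (−0.25 to 0.09) and let-7f 0.01, 0.17 and 0.06 (−0.43 to 0.16), and let-7g ranged from −0.35 to 0.60. For status epilepticus averaged over genotypes, let-7a became −0.08 with weights (−0.43 to 1.09), let-7e −0.01 with snoRNA202 and −0.07 without the first pair (−0.13 to 0.54), let-7g −0.10 with snoRNA135, −0.24 with snoRNA202 and −0.01 with the deposited fold changes (−0.22 to 0.25), miR-98 −0.34 without the first pair (−0.55 to 0.82), and let-7c ranged from −0.24 to 0.04. For genotype averaged over treatments, let-7b became −0.14 with snoRNA202, −0.03 with weights and −0.05 without the first pair (−0.07 to 0.19), let-7f −0.15, −0.19 and −0.15 in the same order (−0.27 to 0.27), let-7g −0.03 with all detected assays, −0.21 with snoRNA202, −0.05 with the deposited fold changes and −0.15 without the second pair (−0.28 to 0.20), and let-7a ranged from −1.35 to 0.15. Where a pair or sample was left out, fewer samples entered. The cause of the other turns was not tested. The difference of miR-98 between P2rx7-/- and wt controls stayed below 0 (−4.15 to −1.38 with 1 sample left out). Values of single wells and 3 pools a group limit what can be seen.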
